A study of Mus musculus with 768 samples.

Results

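A set of 10 genes of milk fat handling (10 of 23997 gene names in the count tables) was followed across the single cells of 2 mouse mammary gland plates. The set was given by name, with earlier results of these data known, and takes no threshold on measured values. It holds Btn1a1, Xdh, Plin2 and Mfge8 of the milk fat globule, Dgat1, Dgat2 and Gpam of triglyceride synthesis, and Lpl, Cd36 and Fabp3 of fatty acid uptake. All 10 were present in both tables. The control plate held tdTomato-positive cells of WAP-CRE; R26-tdTomato mice, and the other plate held GFP-positive cells of WAP-CRE; R26-N1ICD mice, in which Cre under the whey acidic protein promoter of milk-producing cells switches on the intracellular domain of Notch1 with a green reporter (labelled N1ICD-EGFP). Both lines were C57BL/6 and carried WAP-CRE, and cells came from inguinal glands after lactation, for which the design text gives 3 to 4 months without saying how that span was counted. Libraries were made with Smart-Seq2, a method that reads transcripts along their length, from single sorted cells in wells of 384-well plates.

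Wells below 50000 reads or 1000 detected genes were left out, which kept 86.98% of the 384 control wells and 73.7% of the 384 N1ICD-EGFP wells. Kept cells had a median of 241888 reads and 3598 genes in the control plate, and 348469 reads and 2482 genes in the N1ICD-EGFP plate. No label names an animal. Each plate was therefore taken as 1 sample, and genotype, plate and animal cannot be told apart. No test was possible, and differences are given as folds of CPM (reads scaled to a total of 1000000) with a call at 1.5-fold or more. Exact Poisson intervals of sums and Clopper-Pearson intervals of shares, both at 95%, cover counting error of reads or cells and nothing else. Clusters were built without the 10 genes, so that their level did not decide a cell's class. Clusters with at least 3 raised luminal progenitor or secretory markers formed the luminal progenitor/secretory-like class, with 58.7% of the kept control cells and 66.4% of the kept N1ICD-EGFP cells. Hormone-sensing luminal-like cells numbered 65 and 7, immune-like cells 23 and 48, basal-like cells 7 and 0, and 43 and 40 cells stayed unnamed. The 43 control cells raised 5 progenitor and 5 secretory markers, but their median of 74422 reads was too low beside the plate's for a name, with no such marker among their leading genes. Some of them carried markers of other types. Their summed fibroblast markers stood at 7398.5 CPM (per-cell median 0, highest 62526.6), endothelial markers at 642.0 CPM and immune markers at 370.4 CPM. The mammary label of the cells held for most of each plate, since luminal marker genes named 78.1% of the kept control cells and 68.9% on the other plate.

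Milk fat leaves the secretory cell in an unusual way: a lipid droplet reaches the apical membrane and is released wrapped in it. Butyrophilin (Btn1a1) in that membrane, xanthine dehydrogenase (Xdh) beneath it and perilipin 2 (Plin2), the coat protein of the droplet, form the complex thought to hold the droplet to the membrane, and lactadherin (Mfge8) is a surface glycoprotein of the released globule. The droplet's triglyceride is built by Gpam, which starts glycerolipid synthesis in mitochondria, and by Dgat1 and Dgat2, which add the last acyl chain. Lipoprotein lipase (Lpl) frees fatty acids from blood lipoproteins, Cd36 carries them across the membrane and Fabp3 binds them in the cytosol.

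The 10 genes are protein-coding and lie on several chromosomes. On GRCm38.p6, the assembly behind mm10, Btn1a1 spans chr13:23456984-23465914, Xdh chr17:73883895-73950397, Plin2 chr4:86626910-86670217 and Mfge8 chr7:79133768-79149060. Dgat2 lies at chr7:99153663-99182713 and Cd36 at chr5:17781690-17888959, the chromosome that also holds the casein genes. The RefSeq promoter table of that build matched 5 of the 10 genes with 6 promoters, each running from 250 bases before to 50 bases after a transcript start. No promoter of Btn1a1, Xdh, Dgat1, Dgat2 or Lpl was in the table, so Btn1a1 and Xdh could not be searched. The promoters of Plin2 and Mfge8, the only globule genes matched, are shown because they hold a short motif linked to Notch. Capitals mark TGGGAA or its reverse complement TTCCCA, the core bound by RBPJ, the DNA-binding partner of the Notch intracellular domain.
Plin2, chr4:86670010-86670309, minus strand: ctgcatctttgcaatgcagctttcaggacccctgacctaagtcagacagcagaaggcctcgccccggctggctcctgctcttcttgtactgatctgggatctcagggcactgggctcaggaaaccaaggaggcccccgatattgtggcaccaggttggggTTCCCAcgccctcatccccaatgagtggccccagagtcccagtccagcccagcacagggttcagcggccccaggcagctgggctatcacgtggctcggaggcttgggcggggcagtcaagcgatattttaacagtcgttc
Mfge8, chr7:79149011-79149310, minus strand: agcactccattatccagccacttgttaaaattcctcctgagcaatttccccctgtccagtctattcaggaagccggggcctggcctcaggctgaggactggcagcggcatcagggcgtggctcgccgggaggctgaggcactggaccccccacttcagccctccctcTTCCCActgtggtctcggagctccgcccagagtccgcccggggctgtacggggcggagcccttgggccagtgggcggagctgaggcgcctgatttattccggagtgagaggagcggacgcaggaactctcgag
The motif begins 90 bases before the start in Plin2 and 83 bases before it in Mfge8, and one more match begins 43 bases before the start in Cd36. Both strands were searched, and 25.6% of all 32851 promoters in the table hold this motif, so a match here is common. The palindrome TTCNNNGAA, the GAS element read by STAT5 factors, occurs in 8.30% of all promoters and in none of the 6. A letter match is a description of these windows and says nothing on binding in these cells.

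Levels of the 10 genes in the secretory class differed over several orders of magnitude. Per kilobase of merged exon in control luminal progenitor/secretory-like cells, Mfge8 stood highest at 2309 CPM, followed by Btn1a1 at 586, Plin2 at 301.03 and Xdh at 66.7. The next genes were far below, with Dgat1 at 10.7 CPM per kilobase, Dgat2 at 7.92, Cd36 at 2.34, Lpl at 1.72, Gpam at 0.81 and Fabp3 at 0.30. In N1ICD-EGFP cells of the class Mfge8 again led, at 2022 CPM per kilobase, but Plin2 at 300 stood above Btn1a1 at 175.9. The plates give 1 value each, so the order of neighbours has no check in a further animal.

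Btn1a1, Xdh, Plin2 and Mfge8 had most of their reads in the luminal progenitor/secretory-like class on both plates. In the control plate this class held 92.6% of Btn1a1 reads, 88.4% of Xdh reads, 86.7% of Plin2 reads and 94.03% of Mfge8 reads. In the N1ICD-EGFP plate the shares were 90.5%, 84.9%, 89.9% and 93.7%. These shares follow class size as well as level. The shallow unnamed control cells with raised progenitor and secretory markers also had the 4 genes, with Btn1a1 at 1759 CPM, Xdh at 639 CPM, Plin2 at 644 CPM and Mfge8 at 5889 CPM. With these cells added to the class, the plates differed 3.25-fold in Btn1a1 and 2.02-fold in Xdh, and the alternative was added after seeing the data. The 40 unnamed N1ICD-EGFP cells raised 2 progenitor markers and 0 secretory markers, and were not added. They had Btn1a1 at 396 CPM, Xdh at 103.5 CPM, Plin2 at 75.3 CPM and Mfge8 at 3348 CPM. Summed over cells of the control plate, Btn1a1 stood at 2413 CPM in this class against 12.7 CPM in hormone-sensing cells, a 190-fold difference. Xdh stood at 612 against 14.8 CPM (41.4-fold), Plin2 at 1057 against 96.4 CPM (10.97-fold) and Mfge8 at 10839.6 against 145.5 CPM (74.5-fold). Single cells showed the same separation: after thinning each cell to 50000 reads, Btn1a1 was read in 95.4% of the secretory class and in 24.6% of hormone-sensing cells. Immune-like cells, which should lack it, read Btn1a1 in 26.1% of cells in the control plate and 2.1% in the N1ICD-EGFP plate. The control hormone-sensing share of Btn1a1 thus lies at the level of that background, at median depths of 328814 reads for hormone-sensing and 211703 for immune-like control cells. In the N1ICD-EGFP plate 2 of 7 hormone-sensing cells (28.6%) had a Btn1a1 read, a number of cells too small to set against the 2.1%.

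**Figure D1:**
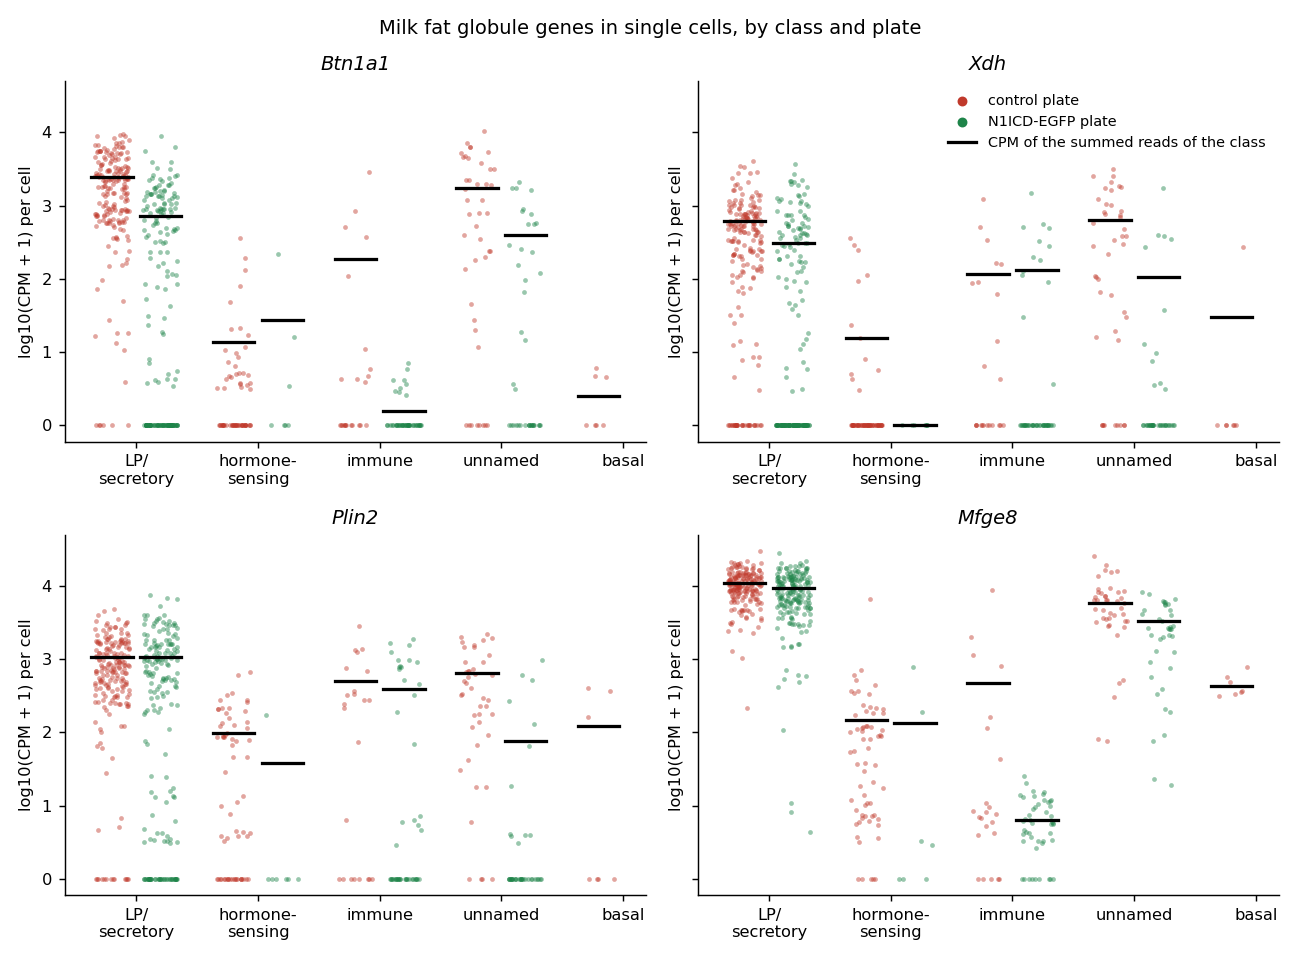
Each point is 1 kept cell, placed by class and plate, with the level of the gene on a log10(CPM + 1) axis, and black bars give the CPM of the reads summed over the class (LP, luminal progenitor). In the LP/secretory class Mfge8 stays near 10000 CPM in both plates, while more N1ICD-EGFP than control cells of that class lie at 0 for Btn1a1, Xdh and Plin2.

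Across the 9 genes with at least 5 CPM in either control class, 6 were higher in luminal progenitor/secretory-like than in hormone-sensing cells, 2 were lower and 1 was within 1.5-fold. Of all 11099 genes so measured, 28.2% were higher and 27.6% lower. The median log2 ratio of the 9 genes was 3.10, beside -0.02 over all genes. Lpl and Cd36 are among the 6 higher genes, but at 18.1 and 8.39 CPM in the secretory class and 1.64 and 0.10 CPM in hormone-sensing cells. They were read after thinning in 6.12% and 2.55% of secretory-class cells, so both values rest on few cells. Fabp3, with 12 and 5 reads in the classes, was below the minimum.

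Dgat2 went the other way and was a gene of hormone-sensing cells. It stood at 227.7 CPM in control hormone-sensing cells (95% counting interval 221.2 to 234.3) and at 24.4 CPM in the secretory class (23.05 to 25.85), a 9.32-fold difference. After thinning, 75.4% of control hormone-sensing cells and 12.2% of secretory-class cells had a Dgat2 read. The 65 hormone-sensing cells, 19.5% of the control plate, held 75.6% of its Dgat2 reads. In the N1ICD-EGFP plate 7 hormone-sensing cells gave 140.5 CPM, with Dgat2 read after thinning in 71.4% of them, and 10.4 CPM was found in the secretory class. The gene was thus higher in hormone-sensing cells on both plates. Gpam was also lower in the secretory class, at 5.37 against 16.05 CPM, a 2.99-fold difference. In well columns 13 to 24 alone Gpam turned round, with a log2 ratio of 0.56. Dgat1 was at 32.7 and 42.2 CPM and did not reach 1.5-fold.

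**Figure D2:**
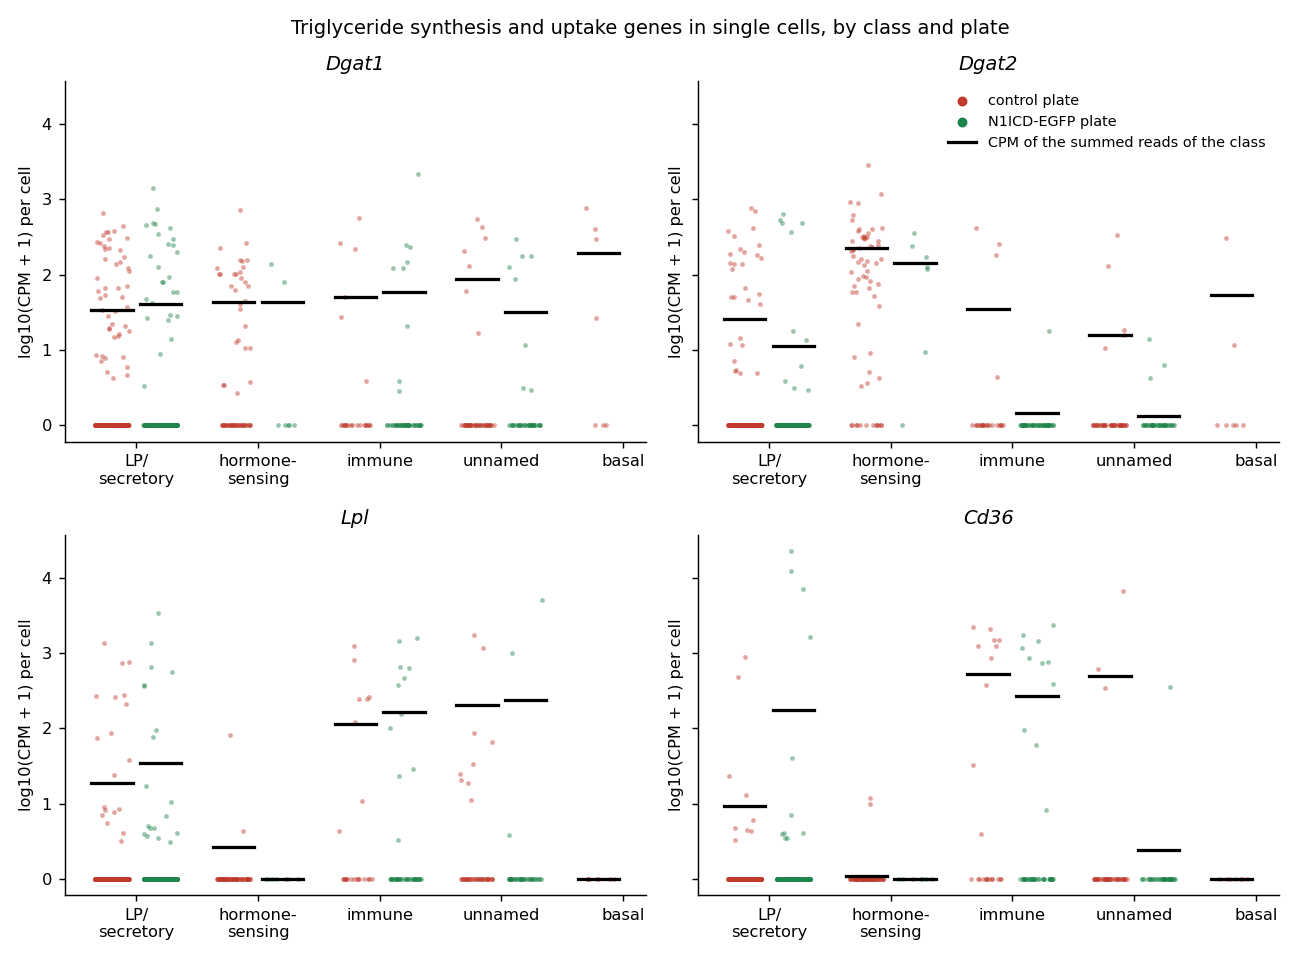
Points are single kept cells by class and plate on a log10(CPM + 1) axis, and black bars give the CPM of the summed reads (LP, luminal progenitor). Dgat2 is read in most hormone-sensing cells of both plates, and Cd36 lies in immune-like cells and in a few cells of other classes that reach above 1000 CPM.

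Genes of the same steps, taken from 6 lists of 80 genes (78 in the tables), placed the 10 in context. In the control plate 15 of the 54 list genes measured were higher in the secretory class and 17 were lower, with a median log2 ratio of -0.19. These shares, 27.8% and 31.5%, lie near the 28.2% and 27.6% over all genes. Other globule membrane proteins divided between the classes: Muc15, a mucin of the globule, stood at 1368 against 17.5 CPM, and the tetraspanin Cd81 at 2550.4 against 274.5 CPM. Cd24a, a surface sialoglycoprotein, was higher in hormone-sensing cells at 2090.3 against 1075 CPM, as was the tetraspanin Cd9 at 2480.1 against 1283 CPM. Of the triglyceride synthesis list, 3 of 9 genes measured were lower in the secretory class, 1 was higher and 5 were neither. Dgat2, one of the 10 genes, is not on that list. The lower ones included Lpin2, a phosphatidate phosphatase, at 362.4 CPM in hormone-sensing against 6.86 CPM in secretory-class cells. The acyltransferase Agpat5 was lower as well, at 77.9 CPM in hormone-sensing against 14.6 CPM in secretory-class cells. Lpin1, of the same phosphatase family as Lpin2, was higher in the secretory class, at 105.5 against 36.2 CPM. The lipases Mgll, which splits monoglycerides, and Pnpla2, which opens triglyceride breakdown, were higher in the secretory class at 47.9 against 4.72 CPM and 331.9 against 141.6 CPM. Another lipase, Lipe, was lower there, at 26.4 against 55.2 CPM. Of the lipid regulator list, 2 of 12 genes measured were higher in the secretory class and 4 were lower. Elf5, the transcription factor of alveolar cells, was higher at 252.3 against 19.6 CPM, and was also used to name the classes. The lower ones included Stat5a, at 165.6 against 282.1 CPM, and Srebf2, at 103.5 against 171.7 CPM.

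The comparison of the plates asks what sustained Notch1 signalling in cells that had produced milk went with. Over all kept cells, Btn1a1 stood at 536 CPM in the N1ICD-EGFP plate and 1558 CPM in the control plate, 2.91-fold lower. Xdh stood at 239.2 against 414 CPM, 1.73-fold lower, and Dgat2 at 11.1 against 77.2 CPM, 6.96-fold lower. Plin2, at 786 against 729 CPM, and Mfge8, at 6785 against 6894 CPM, differed by less than 1.1-fold. Lpl, at 81.2 against 29.98 CPM, Cd36, at 162.6 against 67.6 CPM, and Fabp3, at 10.2 against 0.22 CPM, were higher. In all, 3 of the 10 genes were higher, 3 lower and 4 within 1.5-fold, where 22.5% of the 12021 genes measured were higher and 16.7% lower. The median log2 ratio of the 10 was -0.04, beside 0.07 over all genes. The summed plate mixes the classes, and fewer cells of a class and less RNA per cell cannot be told apart in it. Hormone-sensing cells took 19.5% of kept cells with the control label and 2.47% with the N1ICD-EGFP label, and the part of this in the Dgat2 value was not tested.

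Within the luminal progenitor/secretory-like class the globule genes parted. Btn1a1 stood at 725 CPM in N1ICD-EGFP cells (95% counting interval 718 to 731) and 2413 CPM in control cells (2400 to 2427), 3.33-fold lower. Per cell, Btn1a1 had a median of 1789 CPM (quartiles 705 and 3262, highest cell 9349) in the control plate and 95.2 CPM (quartiles 0 and 947, highest cell 8786) in the N1ICD-EGFP plate. The highest cells were close, while the quartiles and the median lay lower in the N1ICD-EGFP cells. Xdh stood at 303.4 against 612 CPM, 2.02-fold lower, with a per-cell median of 430 CPM in control cells and 0 in N1ICD-EGFP cells. Plin2 had the same summed level, 1055 against 1057 CPM, but was less evenly spread: its per-cell median was 535 CPM in N1ICD-EGFP and 750 CPM in control cells, with the highest cells at 7504 and 4814 CPM. Mfge8 stood at 9493 against 10839.6 CPM and at per-cell medians of 7945 and 10382.5 CPM, 1.14-fold lower in the sums.

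The share of cells with a read followed these spreads. After thinning, Btn1a1 was read in 54.8% of N1ICD-EGFP and 95.4% of control cells of the class, Xdh in 46.8% and 81.1%, Plin2 in 72.3% and 92.9%, and Mfge8 in 99.5% and 100%. Btn1a1, Xdh and Plin2, the partners of the secretion complex, were all read in 73.5% of control cells (66.7 to 79.5). In N1ICD-EGFP cells all 3 were read in 54 cells, 28.7% (22.4 to 35.8). None of the 3 was read in 1 control cell and in 26 N1ICD-EGFP cells, 0.51% and 13.8%. Immune-like control cells read all 3 in 13.04% of cells and hormone-sensing control cells in 3.08%. N1ICD-EGFP cells of the class had fewer genes per cell, at a median of 2431 against 3464, with more reads, at 352560 against 243598, and the part of this in the shares was not tested. Caseins were lower in the same cells: the 4 casein genes above 5 CPM were all lower, with a median log2 ratio of -2.07.

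**Figure D3:**
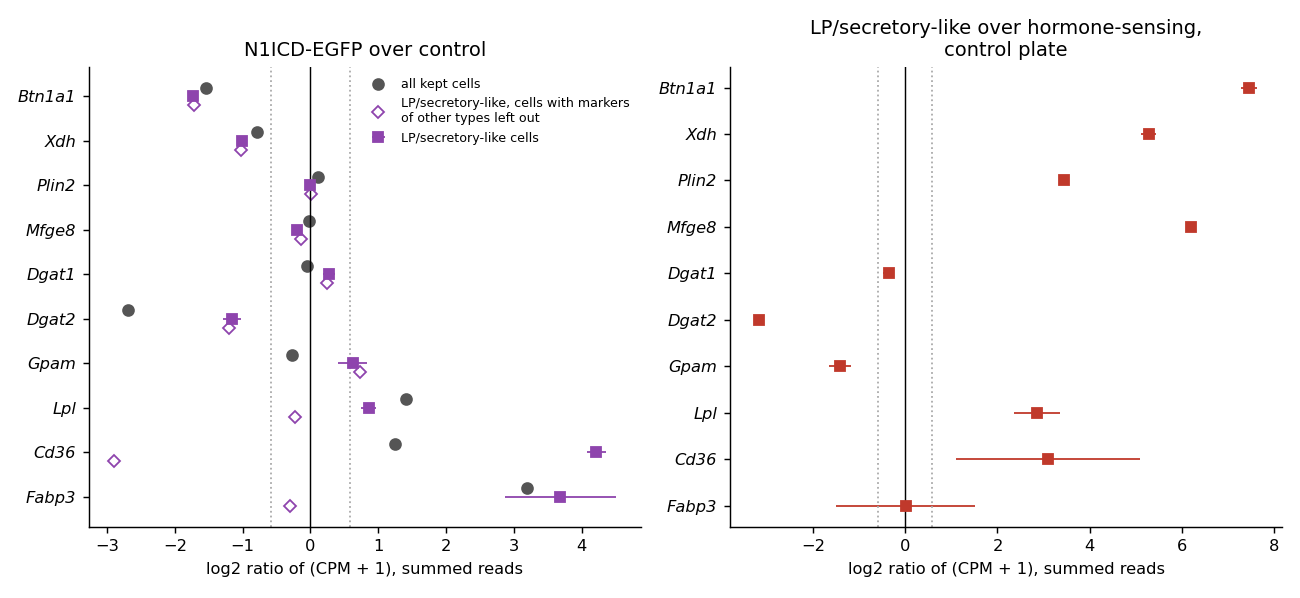
Log2 ratios of (CPM + 1) of the 10 genes, with N1ICD-EGFP over control on the left and luminal progenitor (LP)/secretory-like over hormone-sensing control cells on the right. Dotted lines mark 1.5-fold, bars give 95% counting error, and Lpl, Cd36 and Fabp3 move from above 0 to below 0 on the left when the cells of the marker rule are left out, where Fabp3 is under the 5 CPM minimum.

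Counted at 1.5-fold, 4 of the 10 genes were higher in the N1ICD-EGFP cells of the class (Gpam, Lpl, Cd36 and Fabp3), 3 were lower (Btn1a1, Xdh and Dgat2) and 3 were neither. The background was 23.8% of 11144 genes higher and 15.2% lower, and the medians were 0.13 for the 10 and 0.12 for all genes. The lower genes Btn1a1 and Xdh were read in many cells, whereas the 4 higher genes were read after thinning in 5.85%, 6.38%, 2.66% and 0.53% of N1ICD-EGFP cells. With the shallow unnamed control cells added to the class, Lpl, at 33.5 against 33.9 CPM, was no longer higher, and Cd36 was 3.40-fold higher. Of the reads so added, 698 of 925 for Lpl lay in 1 cell and 2236 of 2299 for Cd36 in another. Dgat2, at 10.4 against 24.4 CPM, was read in 3.72% and 12.2% of cells. Dgat1, at 39.6 against 32.7 CPM, was read in 11.7% and 18.4%.

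The high Cd36 value came from cells with vessel markers. Cd36 stood at 173.4 CPM in N1ICD-EGFP cells of the class and 8.39 CPM in control cells, 20.7-fold higher, yet it was read in 11 and 9 cells. In 3 N1ICD-EGFP cells lay 5016, 3151 and 2166 of its 11301 reads, and these cells held 6, 4 and 7 of the 7 endothelial markers. The same cells had 4059, 6699 and 2291 reads of Fabp4, a fatty acid binding protein known from capillary endothelium and fat cells, and at most 1 read of the casein Csn3. In the control plate the cell with the most Cd36, 2236 reads, stayed unnamed and held all 7 endothelial markers with 6006 Fabp4 reads. Summed endothelial markers stood at 203.1 CPM in the N1ICD-EGFP class (0 to 15700 CPM per cell) and 3.84 CPM in the control class (0 to 611), where Cdh5 and Tie1 were at 0. Adipocyte markers stood at 89.6 and 26.98 CPM, with Adipoq at 0 in both. Most of these sums was Lipe, which alone stood at 75.7 and 26.4 CPM. Basal markers stood at 335.2 and 76.3 CPM, with up to 26840 CPM in 1 N1ICD-EGFP cell, and immune markers at 83.6 and 20.6 CPM. The part of these cells in the other values was not tested beyond the exclusions that follow.

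Fabp3, the main heart-type fatty acid binding protein, had 982 of its 997 reads in 1 N1ICD-EGFP cell. That cell also had 952 Cd36 reads and 796 Lpl reads, 451 reads over 2 of 8 adipocyte markers and no read of a luminal progenitor marker. Without the top cell of each plate it stood at 0.16 CPM in both. A marker rule added after these cells had been seen left out cells with reads of 3 or more endothelial or 3 or more immune markers, or with no progenitor marker. A single read counted, so the rule also took cells with many casein reads, 10 of the 18 N1ICD-EGFP and all 3 control cells removed having 1000 casein CPM or more. Among the cells left, Cd36 stood at 0.27 against 8.49 CPM, Lpl at 15.5 against 18.3 CPM and Fabp3 had 1 read against 12. Btn1a1 stood at 740 against 2430 CPM (3.28-fold lower), Xdh at 300.7 against 616 CPM (2.05-fold lower), Plin2 at 1069 against 1061 CPM and Mfge8 at 9822 against 10823 CPM. So Gpam alone, at 9.73 against 5.44 CPM from 11 and 22 cells, was higher by 1.5-fold. Btn1a1, Xdh and Dgat2 stayed lower, and Cd36 was called lower as well. The Cd36 call rests on few cells, with reads in 7 N1ICD-EGFP and 9 control cells. Of its 406 control reads, 60.8% lay in 1 cell. A further rule asked for at least 10 reads of each of 3 endothelial, immune, basal or fibroblast markers, or no progenitor marker, and removed 11 N1ICD-EGFP and 2 control cells. It gave Btn1a1 at 762 against 2426 CPM (3.18-fold lower), Xdh at 320.2 against 614 CPM (1.92-fold lower), Cd36 at 0.26 against 8.48 CPM and Lpl at 12.5 against 18.3 CPM.

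**Figure D4:**
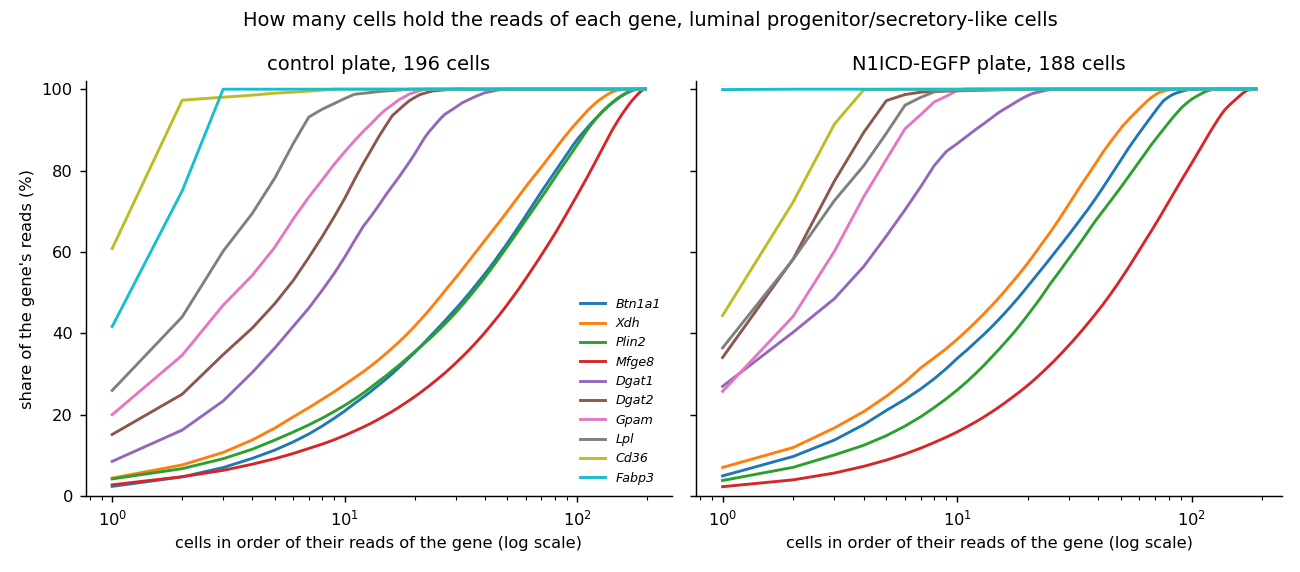
Cumulative share of each gene's reads over the cells of the luminal progenitor/secretory-like class, with cells in order of their reads of that gene on a log axis. Mfge8, Plin2, Btn1a1 and Xdh are spread over many cells on both plates, and in the N1ICD-EGFP plate 1 cell holds almost all Fabp3 reads and 3 cells hold most Cd36 reads.

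Outside the epithelium, the uptake genes were read in immune-like cells. Cd36 stood at 531 CPM in control and 264.9 CPM in N1ICD-EGFP immune-like cells, and Lpl at 114.1 and 161.9 CPM. On the N1ICD-EGFP side these reads lay in a cluster of 15 cells led by macrophage genes such as C1qa and Csf1r, with Cd36 at 642 CPM and Lpl at 392.2 CPM. Plin2 stood at 926 CPM and Xdh at 317.97 CPM in that cluster, levels of the same order as in the secretory class, while Mfge8 was at 3.70 CPM and Btn1a1 at 0.43 CPM. Plin2 and Xdh reads were thus not limited to secretory cells. In control immune-like cells Mfge8 stood at 471.9 and Btn1a1 at 184.6 CPM, with 76.03% and 63.7% of the reads in 1 cell.

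The 3 N1ICD-EGFP clusters of the secretory class differed in their globule genes. The cluster of 41 cells in which progenitor markers but no secretory marker were raised had Plin2 at 160 CPM and Xdh at 65.3 CPM. The others, of 75 and 72 cells, had Plin2 at 1533 and 1076 CPM and Xdh at 497 and 245.8 CPM. Btn1a1 varied less, at 673 CPM in the cluster of 41 cells against 886 and 598 CPM, and so did Mfge8, at 7126 against 9539 and 10705 CPM. In the control clusters of 99 and 97 cells, Btn1a1 stood at 2250.2 and 2566 CPM, Plin2 at 847 and 1254 CPM and Xdh at 571 and 651 CPM.

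Casein reads give another view of secretory state, although the casein genes were also used to name the class. The 5 casein genes together took a median of 24622 CPM per cell in the control class (lowest 222.2, highest 188369) and 3744 CPM in the N1ICD-EGFP class (lowest 0, highest 46370). Over the control cells of the class, Spearman's rho with casein reads was 0.34 for Btn1a1, 0.24 for Xdh, 0.26 for Plin2 and -0.16 for Mfge8. Over the N1ICD-EGFP cells it was 0.32, 0.50, 0.60 and 0.26. These are descriptions over cells of 1 library set each, and rho of casein with total reads was 0.08 and 0.10. With total reads the genes themselves had rho of 0.05, 0.27, 0.17 and 0.09 in control cells and 0.26, 0.17, 0.20 and 0.35 in N1ICD-EGFP cells, in the same order. With the number of genes read it was 0.05, 0.03, 0.20 and 0.14, and 0.35, 0.22, 0.17 and 0.28. The other 6 genes had rho between -0.09 and 0.07, and all are sparsely read.

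**Figure D5:**
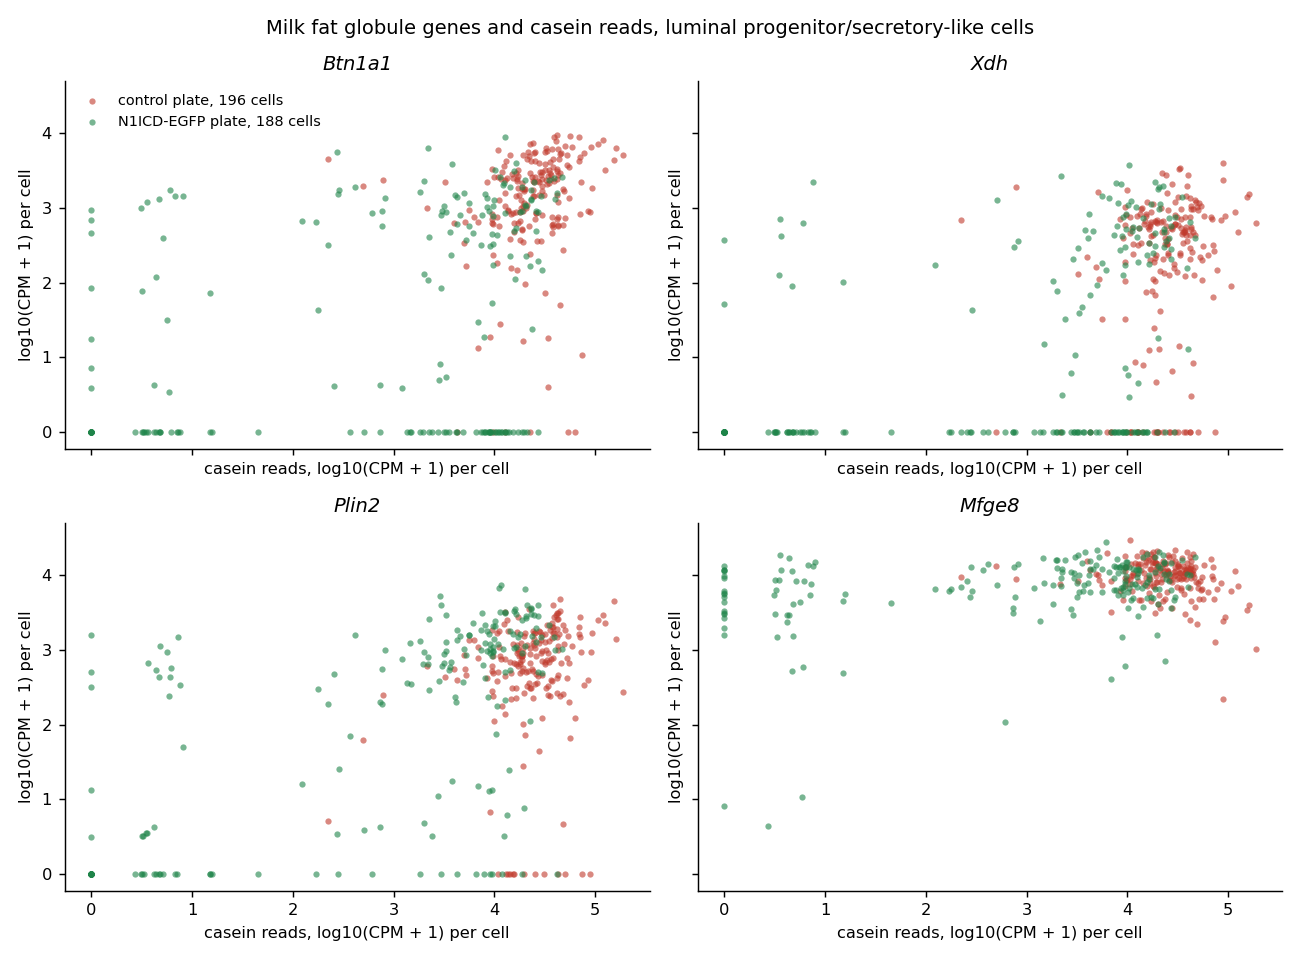
Each point is 1 luminal progenitor/secretory-like cell, with summed casein reads on the horizontal and the gene on the vertical axis, both as log10(CPM + 1). Control cells start at 222.2 casein CPM, and N1ICD-EGFP cells reach 0 casein CPM while their Mfge8 level stays mostly above 1000 CPM.

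Cells of the class were put in 3 equal groups by casein reads, each plate on its own. The low and high groups had median casein levels of 11968 and 44832 CPM in control cells. In N1ICD-EGFP cells these medians were 3.56 and 16016 CPM. The groups thus span unlike casein ranges, and their folds cannot be compared between plates. Between control cells with most and with least casein, 65 cells each, Btn1a1 stood at 3572 against 1385 CPM (2.58-fold higher), Plin2 at 1665 against 785 CPM (2.12-fold) and Xdh at 770 against 503 CPM (1.53-fold). Totals for these values left out casein reads. Mfge8 went slightly the other way, at 9764 against 12141 CPM. In the N1ICD-EGFP class, with 62 cells a group, Plin2 stood at 1876 against 195.8 CPM (9.58-fold), Xdh at 560 against 80.1 CPM (7.0-fold), Btn1a1 at 1097 against 450 CPM (2.44-fold) and Mfge8 at 10334 against 6776 CPM (1.53-fold). Counted over the set, 5 of 9 genes measured were higher and 1 lower in casein-high control cells, against a background of 23.2% and 22.3% of 10819 genes. In the N1ICD-EGFP class 5 of 10 were higher and 4 lower, against 25.2% and 33.2% of 11445 genes. Median log2 ratios were 0.61 and 0.36, beside 0.03 and -0.12 over all genes. Cd36, Lpl, Dgat2 and Fabp3, the lower genes in the N1ICD-EGFP class, stood in the casein-low group that also held the cells with endothelial markers. Without the cells of the marker rule, Dgat2 alone was lower and Lpl was higher at 36.6 against 8.70 CPM. Cd36, at 0.67 against 0.11 CPM, and Fabp3, with no read, fell below the minimum of 5 CPM. Mfge8, at 10057 against 7566 CPM, no longer reached 1.5-fold in the N1ICD-EGFP class.

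Cells with almost no casein were found in the N1ICD-EGFP class alone. The caseins and Kit were among the markers that named the class, and the caseins were not left out of clustering. Both control clusters of the class raised secretory markers, while 1 N1ICD-EGFP cluster of 41 cells raised none. The part of this naming in the counts below was not tested. Under 100 casein CPM lay 49 N1ICD-EGFP cells (26.1%) and 0 control cells; taking 3 cells as the limit that a count of 0 allows, the control share is up to 1.53%. The cut was set after the spread of casein had been seen. In these 49 cells Mfge8 was read in 48 after thinning and stood at 6559 CPM, while Btn1a1 was read in 15, Plin2 in 15 and Xdh in 9. Kit, a receptor of luminal progenitors, was read in 34 of the 49. With the cells of the marker rule left out, 41 cells remained, and Mfge8 was read in all 41 at 7487 CPM, Btn1a1 in 15, Plin2 in 14 and Xdh in 8. The N1ICD-EGFP cells with more casein read Btn1a1 in 63.3%, Xdh in 56.8% and Plin2 in 87.1% of cells, and Mfge8 in all.

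Cells of like casein level were then set side by side, in a window from the 10th percentile of control to the 90th percentile of N1ICD-EGFP cells, 9540 to 20817 casein CPM. This comparison was added after the casein groups had been seen. It held 62 control cells with a median of 15906 and 40 N1ICD-EGFP cells with a median of 13021 casein CPM. Plin2 was higher in the N1ICD-EGFP cells, at 1831 CPM (95% counting interval 1808 to 1854) against 810.1 CPM (795 to 825), 2.26-fold, with per-cell medians of 1299 and 660.5 CPM. Btn1a1 stood at 1053 against 1416 CPM, which is under 1.5-fold, but per-cell medians were 466 and 1067 CPM and its reads reached 65% against 95.2% of cells. Xdh stood at 577 against 453 CPM in sums and at 240.7 against 333.7 CPM in per-cell medians, so its direction depended on the summary. Mfge8 stood at 9879 against 12475 CPM, 1.26-fold lower. Of 10793 genes measured in the window, 27.2% were higher and 31.2% lower in N1ICD-EGFP cells. Median genes per cell were 2468.5 and 3515.5 in the window. The part of this and of casein make-up in the values was not tested.

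The globule genes followed each other loosely from cell to cell. In the control class rho was 0.23 between Btn1a1 and Xdh, 0.22 between Btn1a1 and Plin2 and 0.10 between Xdh and Plin2. In the N1ICD-EGFP class the pairs had 0.25, 0.25 and 0.39. Mfge8 had rho of -0.03 with Btn1a1 and -0.05 with Xdh in control cells, and 0.34 and 0.36 in N1ICD-EGFP cells. Among 5641 genes ranked in control cells, those most like Btn1a1 were Cck, which encodes the gut and brain peptide cholecystokinin, with rho 0.38, the casein Csn2 with 0.37 and Gm2a, a lysosomal lipid-binding protein, with 0.33. In N1ICD-EGFP cells the same pairs had 0.33, 0.30 and 0.30. Xdh was most like Osmr, the oncostatin M receptor (0.29), Trf, the iron carrier transferrin (0.28), and B4galnt1 (0.28), with 0.23, 0.49 and 0.05 on the N1ICD-EGFP plate. For Plin2 the leading genes Kctd1, Clasp1 and Trmt2a had 0.31, 0.29 and 0.29, and between -0.09 and 0.10 in N1ICD-EGFP cells. Mfge8 was most like Gas6, another secreted ligand that binds phosphatidylserine, with 0.35 on both plates, then Ltf (0.32) and Cd24a (0.31), with 0.18 and 0.15 in N1ICD-EGFP cells.

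Related genes of the 6 lists differed between plates within the secretory class in both directions, 19 higher and 10 lower of 59 measured (32.2% and 16.9%, beside 23.8% and 15.2% over all genes), with a median log2 ratio of 0.03. Of the globule membrane list, 3 of 9 were lower and none higher: Btn1a1's neighbours in the globule Muc1, a mucin, stood at 633 against 1038 CPM, and Folr1, the folate receptor, at 46.4 against 122.7 CPM. Of the lipid droplet list 4 of 10 were higher and 3 lower, and of the lipolysis list 2 of 4 were higher and none lower. Hilpda, a droplet protein induced by low oxygen, stood at 92.7 against 195.02 CPM and Rab18, a droplet GTPase, at 295.96 against 461 CPM. G0s2, an inhibitor of the lipase Pnpla2, stood at 60.5 against 19.5 CPM and Mgll at 140 against 47.9 CPM. Lipe, hormone-sensitive lipase and one of the adipocyte markers summed above, stood at 75.7 against 26.4 CPM. Of the triglyceride synthesis list 3 of 9 were higher and 1 lower. Lpin1 was the lower one, at 46.96 against 105.5 CPM. Lpin2, at 27.7 against 6.86 CPM, and Agpat5, at 46.5 against 14.6 CPM, were higher. Of the N1ICD-EGFP reads of Lpin2, 57.7% lay in 1 cell. Of the lipid regulator list 4 of 13 were higher, among them Akt1 at 97.1 against 64.1 CPM, and 2 were lower. The lower ones, the prolactin-responsive factors Stat5a and Stat5b, stood at 100.1 against 165.6 CPM and 66.9 against 135.6 CPM. They were read after thinning in 31.4% against 69.4% and 39.4% against 59.7% of cells. Fabp4, at 200.3 against 1.45 CPM, and the caveolar protein Cav1, at 124.7 against 18.5 CPM, lay in few cells, with 51.3% and 61.5% of their N1ICD-EGFP reads in 1 cell.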

How the data were processed

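The authors' deposited tables hold raw read counts per gene and cell from Smart-Seq2 libraries. Reads were aligned with STAR to mm10, per the submitters' processing notes. Which version, counter, annotation and strand setting was used is not given in the sources used here. Without molecular identifiers, reads are not independent molecules. Rows with a repeated name were added, which left 23997 names of 24490 rows.

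Cells with at least 50000 reads and 1000 genes were kept. Doublets were not called, and an alternative left out cells with genes over the plate median by 3 median absolute deviations. Counts were summed by plate and class, scaled to CPM, and compared as log2 ratios with a pseudocount of 1 where a gene reached 5 CPM in either group. Shares of cells were taken after thinning to 50000 reads. Each plate was clustered alone (scanpy 1.11.5, Leiden, 2000 variable genes without the 10 genes, 15 components, 15 neighbours, resolution 0.8). A cluster took the name with most raised markers if at least 3 were raised, with progenitor and secretory markers joined. It stayed unnamed if another type led its top 10 genes, or if its median depth was low beside the plate's with no such marker among them, as in 1 control cluster of 43 cells. Casein groups are 3 equal groups of cells by casein CPM, with casein reads left out of totals. The 80 list genes cover fatty acid uptake, triglyceride synthesis, lipid droplet, lipolysis, globule membrane and lipid regulators. From each, up to 2 genes per direction were picked by fold at 20 CPM or more. Only some of the genes so picked are named in the text. The 3 genes most like each globule gene are named by rho. Members and lists were chosen with earlier results of these data known. Alternatives covered filters, scaling, thinning, pseudocount, well columns and clustering. The ratio and call step was tested on simulated counts with known changes. Clustering, class naming and casein grouping were not simulated.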

Additional observations from a re-analysis of the deposited data

Results flagged for a closer look

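The wells left out for low depth still held reads of the 10 genes, outside the main measurement. In 50 control wells the 10 genes together took 4775 CPM (4659 to 4893), beside 9821 CPM in the kept cells. In the N1ICD-EGFP wells left out they took 2887 CPM (2804 to 2972), beside 8660 CPM in the kept cells; the limit that a count of 0 allows was 2.23 and 1.90 CPM. The difference of Cd36 between plates pointed opposite ways in the classes: the log2 ratio of N1ICD-EGFP over control was 4.22 in luminal progenitor/secretory-like cells and -1.001 in immune-like cells. The difference between these ratios was not tested, and the first rests on 3 cells with endothelial markers; without the cells of the single-read marker rule it was -2.90.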

How the results depend on the processing

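No paired analysis was possible because each genotype has 1 plate and no test was run. Log2 ratios of Btn1a1 and Xdh in the luminal progenitor/secretory-like class stayed past 1.5-fold lower under all 22 alternatives (-1.86 to -1.58 and -1.27 to -0.73), and those of Plin2 (-0.13 to 0.30) and Mfge8 (-0.32 to -0.06) stayed within it. Against hormone-sensing cells all 4 stayed higher and Dgat2 lower under all 21 alternatives. The number of genes higher in N1ICD-EGFP cells of the class was 4 and became 0 with a looser cell filter, which also gave 5 lower genes and a median of -0.66. It became 1 in well columns 1 to 12 (median -0.69), at resolution 1.2 and without the cells of either marker rule, and 2 without the top cell of each gene. Over all kept cells it was 3, and 1 in well columns 1 to 12. The genes that turned round in the class were Cd36 (-2.92 with the looser filter, -2.81 at resolution 1.2, -2.90 and -2.91 without the cells of the single-read and the 10-read marker rule) and Lpl (-0.66, -0.28, -0.23 and -0.52 in that order, -1.94 in well columns 1 to 12, -0.017 with the shallow control cluster added). Fabp3 fell below 5 CPM in both groups there, with log2 values of -0.29, -0.28, -0.30 and -0.30 in that order, -0.56 in well columns 1 to 12 and -0.17 without its top cell. Fabp3 over all kept cells, also below the minimum, became -0.40 in well columns 1 to 12 and -0.0078 without its top cell, and Gpam between control classes became 0.56 in well columns 13 to 24. For casein groups of control cells the median of 0.61 fell just under 1.5-fold with all reads in the total (0.54), by Csn2 (0.54) or Csn3 alone (0.57), in well columns 1 to 12 (0.50), with the 10 genes among the clustering genes (0.55) and without the cells of either marker rule (0.57 and 0.57). The higher count was 3 in well columns 1 to 12 and under the 10-read rule, and the lower count 2 by Csn3 and 0 in well columns 13 to 24, where Cd36 turned to 0.18. For N1ICD-EGFP casein groups the median rose to 0.88 by Csn2, 0.75 with the stricter filter, 0.70 in well columns 1 to 12, and 1.29 and 1.23 without the cells of either rule. The lower count was 1 by Csn2, where Dgat2 turned to 3.14, and 1 under either rule, where Lpl turned to 1.95 and 4.76 and Cd36, below 5 CPM, stood at 0.58 and 0.56. The higher count was 3 by Csn3. At like casein levels Lpl turned to 1.75 in well columns 13 to 24. The cause of these changes was not tested. The marker rule, top cell, cluster and casein window alternatives were chosen after seeing the data. Genes read in under 10% of cells rest on a few cells each, which limits Gpam, Lpl, Cd36 and Fabp3. It also limits Dgat2, read after thinning in 3.72% of N1ICD-EGFP cells of the class. The Dgat2 log2 ratio between plates there ran from -1.95 to -0.49 over the alternatives.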
